A study of Mus musculus with 2 samples.

Results

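Cadherins and protocadherins are calcium-dependent adhesion proteins that neurons carry at their surface. In the 2 libraries of this series, 92 of 21474 protein-coding genes belonged to them, and they held 0.206% of the gene reads of replicate 1 and 0.172% of those of replicate 2. The members were the protein-coding genes whose symbol begins with Cdh or Pcdh followed by a digit, or with Pcdha, Pcdhb or Pcdhg. There were 57 clustered protocadherins, 9 delta protocadherins, 18 classical cadherins and 8 others. They were taken by symbol without a cut on measured values, though the family was chosen with earlier results of these data known. Each library came from 50 pooled pyramidal neurons of cortical layer 5, from wild-type male mice aged 8 months, taken by laser capture and copied into cDNA by a Smart-seq type protocol, with no treatment and no second condition. The strain is B6NCrl in one label and C57Bl5 or C57Bl6 in others. Both libraries carry 1 donor identifier, and the labels do not say whether they came from different animals, so any spread may be technical. With 1 group of 2 libraries no test can pass a threshold, so values are given per library with SD, and differences within the family are read against that SD.

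Classical cadherins bind the same or a similar cadherin on the facing cell and are linked through beta- and alpha-catenins to actin, and type II members are known for patterns that differ between neuron types. Protocadherins of the delta group have longer cytoplasmic tails and signal to the actin machinery. The clustered protocadherins lie in tandem arrays named alpha, beta and gamma. In the alpha and gamma arrays each variable first exon has its own promoter and is spliced to constant exons shared by the whole array, whereas beta genes are single exons. Each neuron is known to use a small and largely random set of the alternate first exons, while the C-type members at the ends of the alpha and gamma arrays are chosen in a regular way. CTCF, cohesin and DNA methylation take part in that choice.

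The sequence directly upstream of the start is shown for 4 members, because promoters of this family differed in their number of CG dinucleotides, the sites of DNA methylation. Pcdh9 and Pcdh17 are delta members that were well represented in both pools, Cdh10 was the highest type II cadherin by TPM over all transcripts and Cdh24 was a type II cadherin near 0. Each line gives the 150 bases before a RefSeq start on GRCm38.p6, 5′ to 3′ on the gene's strand, with every CG in capitals. They lie at chr14:93890680-93890829 on the minus strand for Pcdh9, chr14:84443413-84443562 on the plus strand for Pcdh17, chr15:18820179-18820328 on the plus strand for Cdh10 and chr14:54641365-54641514 on the minus strand for Cdh24. None of these bases lies in an annotated exon. The Cdh10 stretch lies inside the annotated gene, which begins at 18818947, so the bases before the gene's first annotated base were not examined.
Pcdh9: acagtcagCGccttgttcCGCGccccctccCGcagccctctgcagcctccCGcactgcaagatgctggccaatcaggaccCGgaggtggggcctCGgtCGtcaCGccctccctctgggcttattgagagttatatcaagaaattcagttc
Pcdh17: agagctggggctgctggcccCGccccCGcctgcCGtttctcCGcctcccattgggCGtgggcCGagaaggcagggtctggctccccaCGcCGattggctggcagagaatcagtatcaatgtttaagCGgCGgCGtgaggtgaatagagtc
Cdh10: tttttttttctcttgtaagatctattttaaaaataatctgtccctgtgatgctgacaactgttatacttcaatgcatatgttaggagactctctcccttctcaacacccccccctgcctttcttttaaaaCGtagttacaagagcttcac
Cdh24: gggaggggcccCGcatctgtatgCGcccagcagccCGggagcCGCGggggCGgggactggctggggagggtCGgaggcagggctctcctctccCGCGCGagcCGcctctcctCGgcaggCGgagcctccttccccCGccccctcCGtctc
These stretches hold 9 CG in Pcdh9, 11 in Pcdh17, 1 in Cdh10 and 15 in Cdh24. Cdh10 averaged 21.8 ± 3.89 TPM (transcripts scaled by length and to the same total in each library; SD, n = 2), and Cdh24 was at 0.02 TPM in replicate 1 and 0 in replicate 2. The number of CG and the level therefore did not run in the same order among these 4. They were chosen with their values known, so their order does not describe the family. RefSeq promoter windows of 300 bases, 250 before the start and 50 after it, were matched by symbol for 22 members with 25 windows. No clustered member was among them. The motif CG, which reads the same on both strands and was the only motif searched, occurred at least 10 times in 15 of the 25 windows, which is 60%, and in 43.5% of all 32851 windows of the same length. All 8 windows of the 7 matched delta members passed that number, with 11 to 26 CG and a median of 18.5. Of 13 windows of classical cadherins 7 did. These windows came from 11 genes, with several from Cdh7, and those of Cdh7, Cdh10, Cdh12, Cdh15 and Cdh18 lie wholly inside the annotated genes. Members at a mean of 1 TPM or more had 14 of 22 windows at 10 CG or more, against 1 of 3 for members below it.

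Replicate 1 held 24171434 estimated reads and replicate 2 held 27946180. The 6 listed markers of glutamatergic neurons and the 5 of layer 5 were all at 1 TPM or more in each library. The glutamatergic markers summed to 606 and 784 TPM in replicates 1 and 2. Markers of other cell types were present as well. Those of GABAergic interneurons summed to 3874 and 1494 TPM in replicates 1 and 2, with 6 of 7 at 1 TPM or more in each. This sum was above the glutamatergic one in both libraries, and much of it was Sst, at 2506 and 844 TPM. Astrocyte markers summed to 463 and 546 TPM and oligodendrocyte markers to 454 and 574 TPM. The pools are mixtures of RNA, so fewer cells of a type and less RNA per cell cannot be told apart.

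Members were counted as detected at 1 TPM or more in both libraries, which 52.2% of all protein-coding genes reached. Of the 92 members 45 were detected, a share of 48.9%, which is near the background at this cut. Counts at other cuts are given at the end. The groups differed from each other. There were 22 of 57 clustered members detected, 8 of 9 delta members, 13 of 18 classical cadherins and 2 of 8 others. The median clustered member had 1.25 TPM in replicate 1 and 0.91 in replicate 2. The median delta member had 10.3 TPM in replicate 1 and 7.27 in replicate 2, and the median classical cadherin had 3.38 and 3.25. For all protein-coding genes the medians were 2.02 and 1.84 TPM.

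On the scale of log2(TPM + 1), the median of the clustered members lay 1.04 ± 0.15 below that of the classical cadherins (difference -1.04, SD, n = 2 libraries). The median of the delta members lay above that of the classical cadherins by 1.18 ± 0.31. Clustered minus delta gave -2.22 ± 0.15. Each of the 3 differences had the same sign in both libraries and was larger than its SD. Among members at a mean of 1 TPM or more, delta minus classical was 0.23 ± 0.74 and its sign differed, with 0.75 in replicate 1 and -0.30 in replicate 2. Within the classical group, the type II median exceeded the type I median by 1.90 ± 0.66 on the same scale. Within the delta group, delta-1 exceeded delta-2 by 0.70 ± 0.37.

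**Figure D1:**
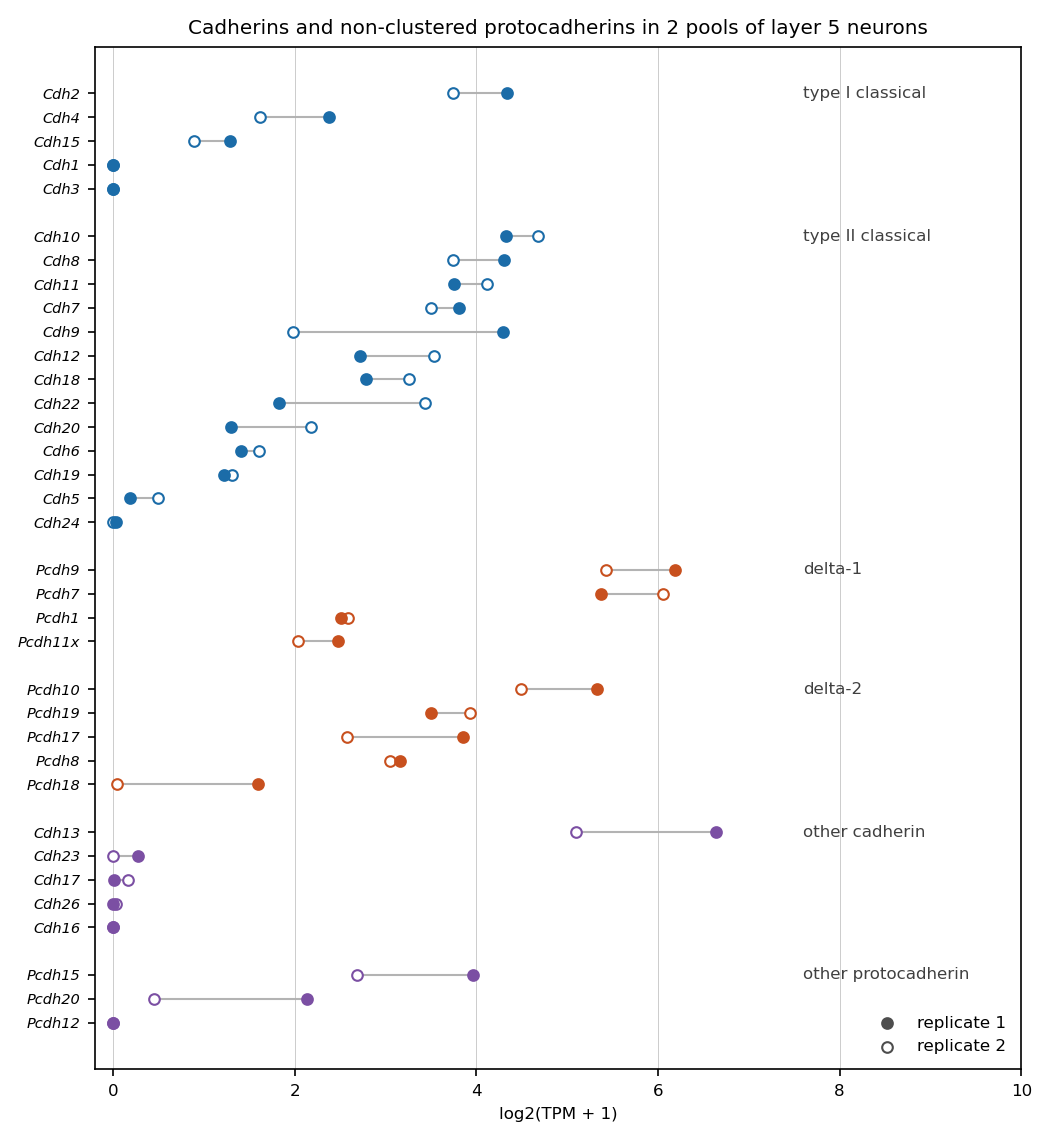
Levels of the cadherins and non-clustered protocadherins, with log2(TPM + 1) on the horizontal axis and 1 row per gene, filled points for replicate 1 and open points for replicate 2, joined by a line. Pcdh9, Pcdh7, Pcdh10 and Cdh13 lie furthest to the right on average over the libraries. Cdh9, Cdh22, Pcdh18 and Pcdh20 have some of the longest lines between the 2 libraries.

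Type I classical cadherins include the founding members of the family, and Cdh2 was the only one of the 5 above 10 TPM. Cdh2, N-cadherin, the main classical cadherin of synaptic junctions, was at 19.3 and 12.4 TPM in replicates 1 and 2. Cdh4, R-cadherin, was at 4.21 and 2.08 TPM. Cdh15, M-cadherin of muscle, was at 1.44 and 0.85 TPM. Cdh1 and Cdh3, the E- and P-cadherins of epithelia, had no read in either library. A count of 0 allows up to 3 reads, or 0.128 CPM (reads scaled by library size and not by length) in replicate 1 and 0.115 CPM in replicate 2. These floors and the intervals below cover counting error only, since reads without molecular identifiers are not independent molecules.

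Among the type II cadherins, 11 of 13 were at a mean of 1 TPM or more, and 5 of them stood above 10 TPM on average. Cdh10, which has a broad brain expression, was the highest over all transcripts with 19.1 and 24.6 TPM in replicates 1 and 2 (chr15:18818947-19014236, plus strand, GRCm38). Cdh8, which marks subsets of cortical and thalamic neurons, was at 18.7 and 12.4 TPM, and Cdh11, first described in bone-forming cells, was at 12.5 and 16.4 TPM. Cdh7 was at 13.0 and 10.4 TPM. The values of Cdh8 and Cdh11 overlapped, as did those of Cdh11 and Cdh7, whereas both Cdh10 values lay above both Cdh8 values. On protein-coding transcripts alone, in replicate 1, the order turned round, with 10.4 TPM for Cdh10, against 16 TPM for Cdh8, 18.7 TPM for Cdh9 and 12.5 TPM for Cdh11. Cdh9, known from mossy fibre synapses of the mouse hippocampus, was at 18.7 and 2.96 TPM in replicates 1 and 2, so its mean of 10.8 TPM describes neither pool. Cdh12 had 5.60 and 10.5 TPM and Cdh18 had 5.88 and 8.55 TPM. Cdh22 had 2.54 and 9.78 TPM, Cdh20 had 1.47 and 3.54 TPM, Cdh6 had 1.66 and 2.05 TPM, and Cdh19, known from glial precursors, had 1.34 and 1.48 TPM. Cdh5, VE-cadherin of endothelial cells, was below 1 TPM, at 0.14 and 0.41 TPM. The 6 endothelial markers listed summed to 48.6 and 61.4 TPM in replicates 1 and 2.

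By mean TPM over all transcripts, the delta protocadherins Pcdh9, Pcdh7 and Pcdh10 were the highest members after Cdh13. In replicate 2 Cdh10, at 24.6 TPM, was above Pcdh10, at 21.4 TPM. Pcdh9 (chr14:93013410-93890679, minus strand) was at 71.9 and 42.2 TPM in replicates 1 and 2. Pcdh7 (chr5:57717967-58133230, plus strand), a delta-1 member whose tail carries a binding motif for protein phosphatase 1, was at 40.5 and 65.6 TPM. Pcdh9 was the higher of this pair in replicate 1 and Pcdh7 in replicate 2, so their order was not fixed by these libraries. Pcdh7 had the most reads of all members, 6717 in replicate 1 and 12526 in replicate 2. The other delta-1 members were lower, with 4.71 and 5.01 TPM for Pcdh1 and 4.55 and 3.09 TPM for Pcdh11x.

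Among delta-2 members, Pcdh10, which recruits the WAVE complex through Nckap1 in cultured cells, led with 39.3 and 21.4 TPM in replicates 1 and 2. Pcdh19, an X-linked gene mutated in a human epilepsy, had 10.3 and 14.2 TPM. Pcdh17 had 13.5 and 4.96 TPM, and Pcdh8, also called arcadlin and induced by neuronal activity in rat, had 7.97 and 7.27 TPM. Pcdh18, which binds the adaptor Dab1, was the lowest, at 2.03 and 0.03 TPM in replicates 1 and 2.

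Of the 8 other members, Cdh13 and Pcdh15 were detected in both libraries. Cdh13, T-cadherin, is held to the membrane by a lipid anchor and lacks the cytoplasmic tail that binds catenins. It was at 98.5 and 33.1 TPM in replicates 1 and 2 (chr8:118283733-119324921, plus strand), the highest mean of the family with the largest spread, 65.8 ± 46.2 TPM. In replicate 2 Cdh13 was below Pcdh7 and Pcdh9, which were at 65.6 and 42.2 TPM. Cdh13, Pcdh9, Pcdh7 and Pcdh10 together held 44.6% of the summed TPM of the 92 members in replicate 1 and 37.6% in replicate 2. Pcdh15, a tip-link protein of inner ear hair cells, was at 14.6 and 5.42 TPM, and Pcdh20 was at 3.40 and 0.37 TPM. Cdh23, the tip-link partner of Pcdh15, had 6 reads in replicate 1 and 0 in replicate 2. Cdh16 of kidney and Pcdh12 of blood vessels were at 0 reads in both libraries.

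Several of these levels rest on short or non-coding transcripts, as the transcript table of replicate 1 shows. Of 60 members at 1 TPM or more there, 53 had a protein-coding transcript as the leading one and 7 had another kind. However, 31 of the 60 had 1 annotated transcript, so their leading one was fixed by the annotation. The share over all protein-coding genes was not counted. For Cdh13 a processed transcript of 620 nt held 44.0% of the gene's TPM and the full coding transcript of 3785 nt held 38.5%, although the coding one had 2798 of its reads and the short one 451. The coding transcript alone gave 37.95 TPM, below the 39.25 TPM of Pcdh10, which came from coding transcripts. For Pcdh19 a transcript of 335 nt marked for nonsense-mediated decay held 56.7% of the TPM with 27.6 estimated reads, and the coding transcripts gave 2.81 TPM. Of the Cdh10 TPM 54.5% came from coding transcripts. For Pcdh15 the leading transcript was a retained intron with 28.1% of the TPM, and for Cdh18 it was a retained intron with 38.6%. Cdh9, Cdh11 and Pcdh17 each had 1 annotated transcript, which by necessity held all of the TPM. In contrast, Pcdh7 had 6 annotated transcripts, and 1 coding transcript held 94.6% of its TPM.

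The 3 arrays of clustered protocadherins lie next to each other on mouse chromosome 18, alpha at 36930184 to 37187661, beta at 37264938 to 37524479 and gamma at 37661793 to 37841873, all on the plus strand of GRCm38. Their summed levels were close. They were 46.4 and 39.4 TPM in replicates 1 and 2 for alpha, 40.3 and 35.8 TPM for beta, and 36.7 and 35.3 TPM for gamma. The sums of alpha and beta overlapped between libraries, as did those of beta and gamma. How the sum was divided differed. There were 10 of 14 alpha members detected in both libraries, against 8 of 22 beta and 4 of 21 gamma members. The alpha median exceeded the gamma median by 1.20 ± 0.48 on the log2(TPM + 1) scale and the beta median by 0.69 ± 0.21. Beta exceeded gamma by 0.50 ± 0.27. The effective number of members, which is the number of equal shares that would give the same concentration of reads, was 8.34 ± 0.36 of 14 for alpha, 12.4 ± 1.48 of 22 for beta and 5.86 ± 2.86 of 21 for gamma (SD, n = 2).

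**Figure D2:**
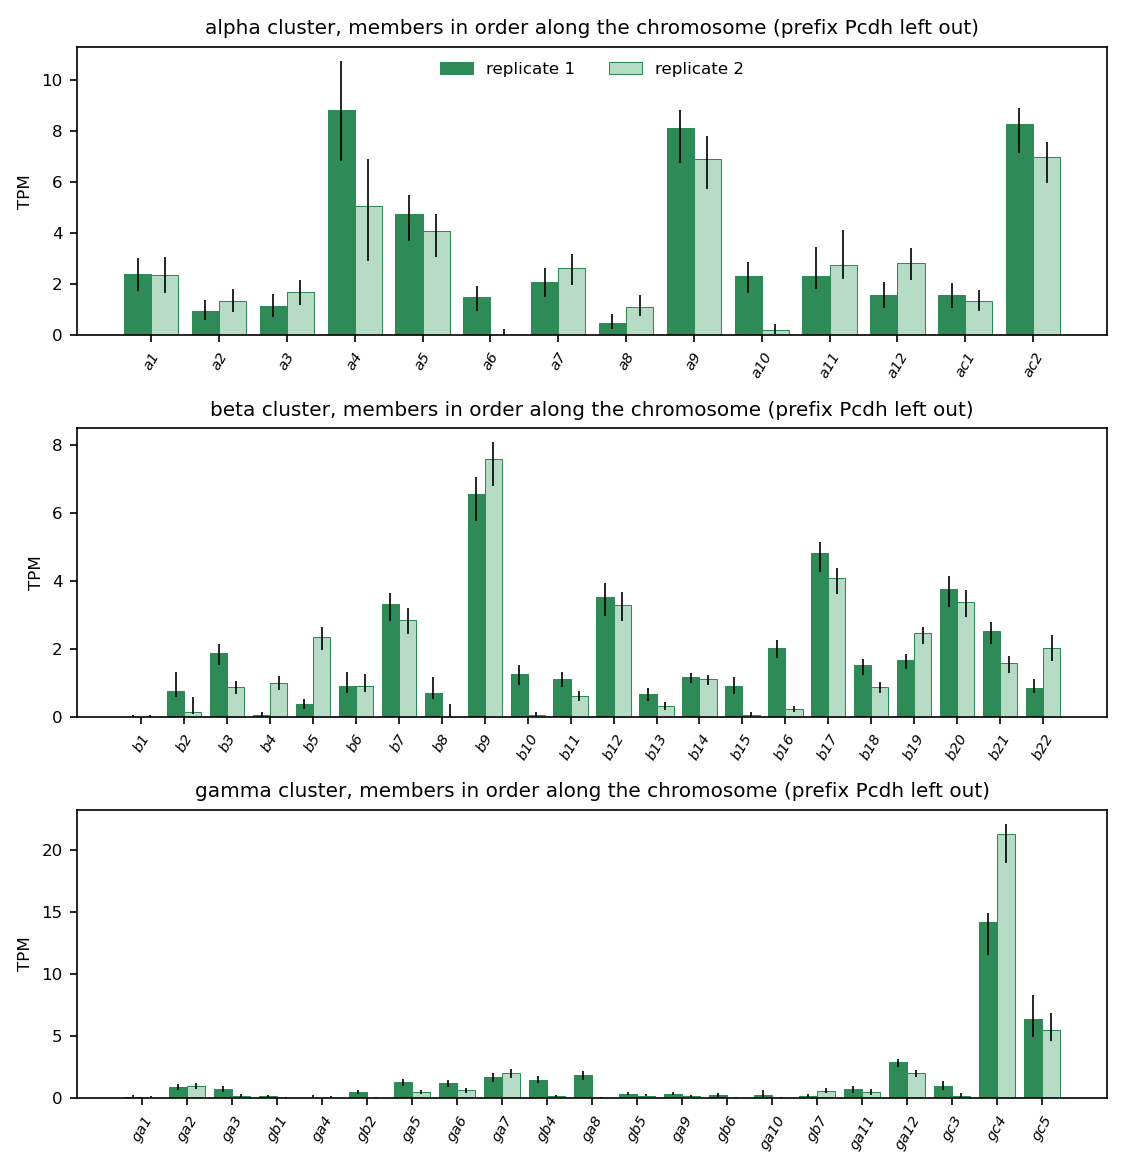
Levels of the clustered protocadherins in TPM, 1 panel per array with members in chromosomal order, dark bars for replicate 1 and light bars for replicate 2. Vertical lines are the deposited interval of each estimate, whose level is not stated in the files. Alpha and beta bars are spread along the arrays, and in gamma Pcdhgc4 and Pcdhgc5 stand above the alternate members.

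In the alpha array the C-type member Pcdhac2, needed for the tiling of serotonergic axons in mouse, was at 8.29 and 6.98 TPM in replicates 1 and 2. Pcdha9 was at 8.11 and 6.92 TPM and Pcdha4 at 8.83 and 5.08 TPM. Pcdha5 had 4.75 and 4.08 TPM and Pcdha11 had 2.32 and 2.77 TPM. The other C-type member, Pcdhac1, had 1.59 and 1.36 TPM, below several alternates. The values of Pcdhac2, Pcdha9 and Pcdha4 overlapped. The 12 alternates lay around a median of 2.22 and 2.51 TPM in replicates 1 and 2, with Pcdha1 close to it at 2.40 and 2.36 TPM and Pcdha8 below it at 0.50 and 1.12 TPM. The C-type pair held 24.0% of the alpha reads in replicate 1 and 23.5% in replicate 2.

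The beta array had no C-type member. Pcdhb9 led with 6.56 and 7.58 TPM in replicates 1 and 2, followed by Pcdhb17 with 4.82 and 4.08 TPM. Pcdhb20 had 3.77 and 3.38 TPM, Pcdhb12 had 3.53 and 3.30 TPM and Pcdhb7 had 3.31 and 2.86 TPM. These 5 kept the same order in both pools. Pcdhb21 and Pcdhb22, which lie next to each other and share 455 bases of annotated exon, changed places: Pcdhb21 had 2.52 and 1.58 TPM and Pcdhb22 had 0.85 and 2.03 TPM. Pcdhb1 had no read in either.

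In the gamma array, 2 C-type members had the highest TPM over all transcripts. Pcdhgc4, which supports survival of cortical interneurons in mouse, was at 14.2 and 21.3 TPM in replicates 1 and 2, and Pcdhgc5 was at 6.39 and 5.52 TPM. Pcdhgc3, the third C-type member, was at 1.00 and 0.18 TPM. Together the C-type members held 44.4% of the gamma reads in replicate 1 and 64.3% in replicate 2. By mean TPM the highest alternates were Pcdhga12 with 2.90 and 2.05 TPM, Pcdhga7 with 1.68 and 2.06 TPM, and Pcdhga8 with 1.86 and 0.03 TPM. The place of Pcdhga8 rests on replicate 1, and Pcdhga2, with 0.88 and 1.00 TPM, had nearly the same mean. The median of the 12 gamma A members was 0.83 and 0.37 TPM in replicates 1 and 2, and that of the 6 gamma B members was 0.32 and 0.095 TPM. No gamma B member reached 1 TPM in both pools, and Pcdhga4 had no read in either.

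The identity of the reads behind the gamma C-type values is limited. In replicate 1, 93.6% of the Pcdhgc4 TPM came from a transcript of 2272 nt of which 93.3% lies in exons of other gamma members, with a first exon of 153 bases. For Pcdhgc5, 55.3% came from a transcript of 593 nt of which 75.2% is so shared. Without transcripts that lie by more than 70% in exons of other members, the C-type members held 24.1% of the gamma reads in replicate 1, against 44.4% with them. Pcdhgc4 was then at 0.91 TPM and Pcdhgc5 at 2.86 TPM, below and close to the 2.90 TPM of Pcdhga12. The effective number for gamma in replicate 1 was 11.4, against 7.89 with those transcripts. For Pcdhga12 a transcript marked as a retained intron held 98.5% of the TPM, and its exons overlap Gm26672 on the opposite strand, which had 79.0 and 81.3 estimated reads. Whether strand was used in counting is not given in the sources used here.

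Shared exons also bear on how surely reads were assigned. The files give a posterior SD for each estimated count. It exceeded 0.1 of the count in both libraries for 13 of 69 members with at least 10 reads in each, against 1.07% of protein-coding genes. All 13 were clustered, 10 of 13 alpha members tested and 3 of 14 gamma members. None of the 16 beta members and none of the non-clustered members did so. The posterior SD as a fraction of the count had a median of 0.135 ± 0.00094 for alpha, 0.00198 ± 0.000318 for beta and 0.0968 ± 0.0111 for gamma (SD, n = 2). Of the 31-base words in the transcripts, alpha members shared 44.9% to 70.2% with another member, gamma members 27.3% to 67.5%, beta members at most 22.5% and non-clustered members at most 0.277%. The posterior SD for Pcdha4 was 0.109 of the count in replicate 1 and 0.197 in replicate 2. Its place among the highest alpha members is therefore less sure than that of Pcdhac2, with 0.0466 and 0.0508. Of the 31-base words of Pcdha4, 90.7% occur in another gene of any kind. Gm42416 overlaps its exons on the same strand and had 0 estimated reads in both libraries.

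**Figure D3:**
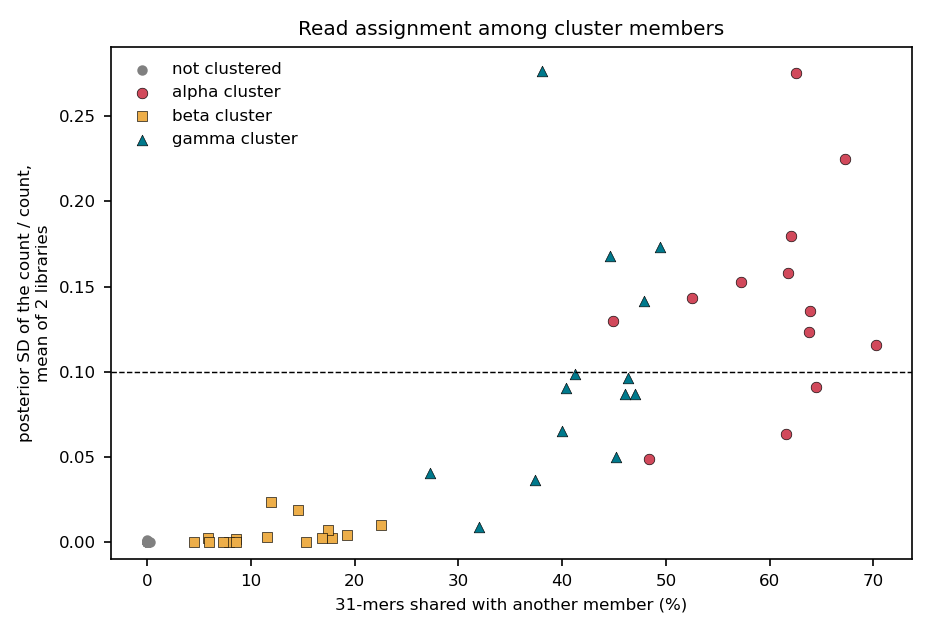
Uncertainty of read assignment, with the percentage of 31-base words shared with another member on the horizontal axis and the posterior SD as a fraction of the count, averaged over the 2 libraries, on the vertical axis. The dashed line marks 0.1, and beta and non-clustered members lie below it while most alpha members lie above.

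The 2 pools were compared gene by gene as the ratio of replicate 1 to replicate 2, on CPM + 1 after TMM scaling, for genes at a mean CPM of 1 or more. Of all protein-coding genes 6.10% were at least 2-fold higher in replicate 1 and 3.52% at least 2-fold higher in replicate 2. Of 74 members past the filter, 18 were higher in replicate 1, a share of 24.3%, and 4 were higher in replicate 2, a share of 5.41%. The median size of the log2 ratio, sign ignored, was 0.62 for the members and 0.31 for all protein-coding genes. At a mean CPM of 10 or more, 5 of 32 members were higher in replicate 1, against 2.59% of coding genes, and 1 was higher in replicate 2, against 1.82%. By group, 11 of 48 clustered, 2 of 9 delta, 2 of 14 classical and 3 of 3 other members were higher in replicate 1. The 4 higher in replicate 2 were 2 of 48 clustered and 2 of 14 classical members. These counts describe 2 libraries and have no replicate check.

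**Figure D4:**
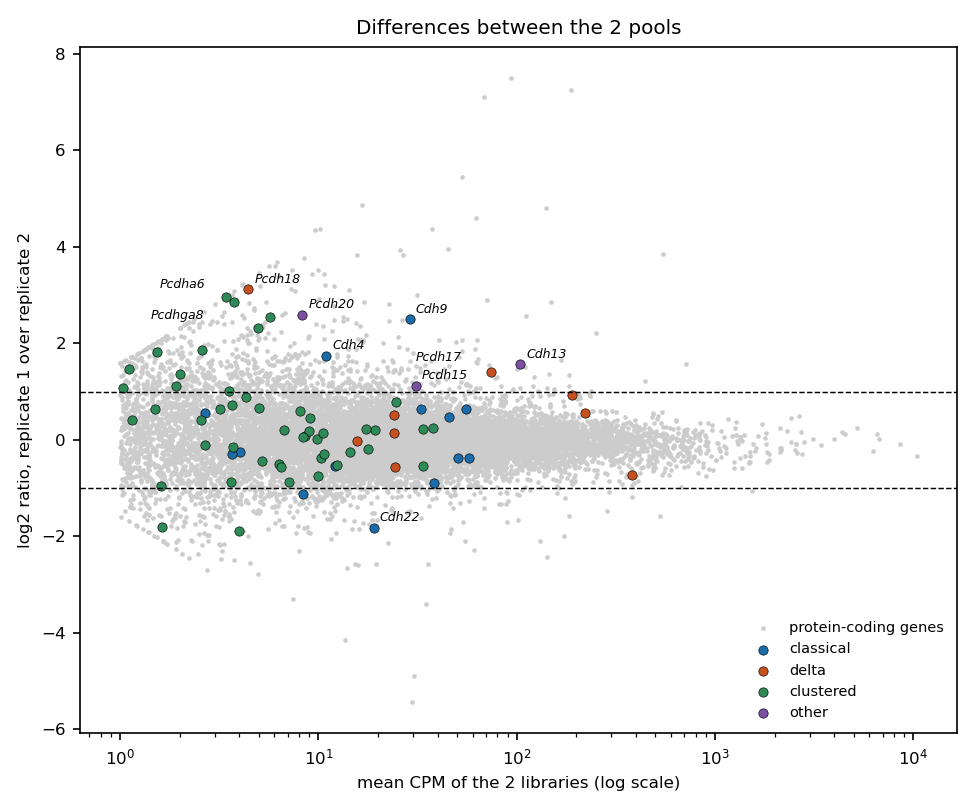
Log2 ratio of replicate 1 over replicate 2 against mean CPM on a log axis for protein-coding genes in grey and members in colour by group, with dashed lines at 2-fold. Above the upper line lie 18 members, among them Pcdh18 and Cdh9, and below the lower line lie 4, among them Cdh22.

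Outside the arrays, 9 members were 2-fold apart. Cdh13 had 3645 reads in replicate 1 and 1353 in replicate 2, a ratio of 3.01 (95% exact interval 2.83 to 3.21). Cdh9 had 1164 and 207 reads, a ratio of 6.29 (5.42 to 7.32), and Pcdh17 had 2535 and 1046 reads, a ratio of 2.71 (2.52 to 2.91). Pcdh15 had 1003 and 500 reads, a ratio of 2.24 (2.01 to 2.50). Pcdh20 had 350 and 43 reads, a ratio of 9.10 (6.62 to 12.8). The widest gap was that of Pcdh18, with 205 reads in replicate 1 and 3 in replicate 2, a ratio of 76.4 with an interval of 25.8 to 373. Cdh4 had 406 and 117 reads, a ratio of 3.88 (3.15 to 4.81). On log2(TPM + 1) its difference was 0.76, under 2-fold. In the other direction, Cdh22 had 183 reads in replicate 1 and 789 in replicate 2, a ratio of 0.259 (0.220 to 0.305). Cdh20 had 115 and 310 reads, a ratio of 0.415 (0.332 to 0.515), and was under 2-fold when scaled to spike-ins or on TPM + 1. All these intervals lie clear of equal levels, and none covers variation between pools.

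In the arrays, 13 members were 2-fold apart. Pcdha10 had 244 reads in replicate 1 and 24.9 in replicate 2, and Pcdha6 had 160 and 0. The deposited interval of Pcdha6 reached 0.255 TPM in replicate 2, against a level of 1.52 TPM in replicate 1. Their alpha neighbours Pcdha9 and Pcdha5 had log2 ratios of 0.22 and 0.21. Among beta members Pcdhb16 had 208 and 26 reads, Pcdhb10 had 68.6 and 3.16, Pcdhb15 had 49 and 3, and Pcdhb2 had 41 and 8. Pcdhb5 and Pcdhb4 ran the other way, with 26 and 4 reads in replicate 1 and 180 and 81 reads in replicate 2. Among gamma members Pcdhga8 had 172 and 3.56 reads, Pcdhga5 119 and 52.8, Pcdhga3 69.7 and 21.9, Pcdhgb4 108 and 14, and Pcdhgc3 78.4 and 17.5. The exons of Pcdhgc3 overlap BC037039, which had 38.6 and 17.0 reads. Those of Pcdhga8 overlap Gm37165 on the opposite strand, which had 39.6 and 6.3 reads in replicates 1 and 2. All Pcdhgb4 reads of replicate 1 were on a processed transcript that is not marked as coding. In replicate 2 the posterior SD was 0.429 of the count for Pcdha10 and 0.408 for Pcdhgc3. Pcdhb8, with 45 reads in replicate 1 and 1.02 in replicate 2, fell just under the filter at a mean CPM of 0.981. There were 6 members at 0 reads in replicate 2 alone, 4 of them clustered, and 1 at 0 reads in replicate 1 alone. Cdh24 and Cdh23 were among the 6, with only 1.12 and 6 reads in replicate 1. The same count was not made over all protein-coding genes, so it has no background here.

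Marker genes of some other cell types moved between the same libraries. None of the 6 glutamatergic, 6 astrocyte, 5 oligodendrocyte and 6 endothelial markers was 2-fold apart. Of 7 interneuron markers 4 were at least 2-fold higher in replicate 1 and none in replicate 2, with Sst at 2506 and 844 TPM in replicates 1 and 2 and Vip at 153 and 0.03 TPM. Of 5 oligodendrocyte precursor markers 3 were at least 2-fold higher in replicate 1, and their sum was 18.8 and 6.55 TPM. Meningeal fibroblast markers summed to 6.86 and 0.52 TPM, with none of 5 at 1 TPM in both, Lum at 0 in replicate 1 and Col1a1 and Dcn at 0 in replicate 2. Ependymal and choroid markers summed to 0.71 TPM in replicate 1 and all 4 were at 0 in replicate 2. Of 5 layer 5 markers, Etv1, Fezf2 and Pcp4 were at least 2-fold higher in replicate 2. Rbp4, at 69.4 and 98.8 TPM, and Bcl11b, at 12.2 and 10.2 TPM, were under 2-fold apart, and Bcl11b was higher in replicate 1. The sums over the list were 2251 and 4715 TPM, most of it Pcp4 with 2134 and 4468 TPM. The part of these cell types in the differences among cadherins and protocadherins was not tested.

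The genes for proteins that work with the family are given as lists chosen for their known roles. As background, 52.2% of protein-coding genes were detected in both libraries. Of those past the CPM filter, 6.10% were at least 2-fold higher in replicate 1 and 3.52% in replicate 2. In lists this short, a count of 0 or 1 past 2-fold is near these shares. Of 9 catenins, the link of classical cadherins to actin, 8 were detected in both libraries. Ctnnb1, beta-catenin, was at 65.0 and 53.9 TPM in replicates 1 and 2. Ctnnd2, delta-catenin of dendritic spines, was at 36.8 and 36.0 TPM, and Ctnna2, the neuronal alpha-catenin, at 31.1 and 29.5 TPM. One of the 9 was at least 2-fold higher in replicate 1 and none in replicate 2. All 13 listed cytoplasmic partners of protocadherins were detected and none was 2-fold apart. They were led by the phosphatase subunit Ppp1ca at 253 and 302 TPM, followed by the WAVE complex subunits Nckap1 at 128 and 108 TPM and Cyfip2 at 115 and 112 TPM.

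Of 15 genes for promoter choice in the arrays, 14 were detected. None of the 14 past the CPM filter was 2-fold apart, which is near the background share. Ctcf was at 27.2 and 29.8 TPM in replicates 1 and 2, and the cohesin subunits Smc1a and Smc3 were at 23.6 and 21.7 TPM and at 19.2 and 22.6 TPM. Dnmt3b, which methylates alternate promoters early in mouse development, was the exception at 0.05 and 0.09 TPM. All 6 genes of cadherin cleavage were detected, with the gamma-secretase subunit Psenen at 169.9 and 169.7 TPM and the sheddase Adam10 at 24.24 and 17.99 TPM. Of 24 other members of the cadherin superfamily 6 were detected, and 3 of the 11 past the CPM filter were at least 2-fold higher in replicate 1. Clstn1, which links vesicles to kinesin, was at 125 and 192 TPM, Clstn3, which acts in synapse formation, at 21.6 and 39.7 TPM, and Celsr2, a planar polarity receptor, at 13.5 and 27.1 TPM.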

How the data were processed

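RNA was measured in 2 libraries of 1 group. The authors deposited an expected count per gene, which is an estimated and unnormalized number of reads. The deposited tables also hold TPM, scaled by length to a fixed sum, and FPKM, scaled by length and depth. For replicate 1, a deposited percent splits the TPM of each gene among its transcripts. Values came from transcriptome alignments on mm10 with GENCODE release 4, per the text files that the authors deposited beside them. The aligner, quantifier and strand use were not given in the sources used here.

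Symbols and coordinates came from GENCODE release 21 on GRCm38, matching 42462 of 43346 identifiers by identifier without version. One gene with a duplicated symbol was named Pcdha10 from its RefSeq accession. Expected counts were rounded for TMM scaling in edgeR 4.0.16 (R 4.3.3); DESeq2 1.42.0 gave alternative size factors. No model was fitted, and no test was run. Ratios were on CPM + 1 at a mean CPM of at least 1, with 95% exact (Clopper-Pearson) intervals from the 2 counts given library sizes. Shared words were 31 bases long and taken from GENCODE transcripts. Medians used log2(TPM + 1). The ratio step was tested on simulated counts. Spike-ins, 4.28% and 5.32% of reads, were left out of library sizes.

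The members and the gene lists were chosen with earlier results of these data known. Values are given for each classical, other and delta member at a mean TPM of at least 1, the 5 highest members of each array, all C-type members, each member 2-fold apart, and the 3 highest genes of each list of partners; members at 0 are named. One gene that this rule selects is not reported here. Other members, and marker genes, were chosen after their values were seen. Alternatives covered pseudocount, filters, scaling, unit and leaving out each library; protein-coding transcripts only and the removal of shared transcripts were chosen after seeing the data.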

Additional observations from a re-analysis of the deposited data

How the results depend on the processing

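The means over the libraries of the 3 differences of group medians kept their sign under all 8 alternatives each. With a pseudocount of 0.1, clustered minus classical was -1.52 and clustered minus delta -2.91. Among members at a mean of at least 1 TPM, clustered minus classical was -1.29, clustered minus delta -1.52, and delta minus classical 0.23 ± 0.74, positive in replicate 1 and negative in replicate 2. With members whose posterior SD was at most 0.1 of the count, they were -1.38, -1.98 and 0.59, over fewer members. With protein-coding transcripts of replicate 1 only, clustered minus classical was -0.81 and clustered minus delta -2.05. Leaving out each library in turn gave -1.15 to -0.93 for clustered minus classical, -2.33 to -2.11 for clustered minus delta, and 0.96 to 1.40 for delta minus classical.

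Of 92 members, 70 were detected at 0.1 TPM, against 62.4% of protein-coding genes, and 20 at 5 TPM, against 37.4%. In single libraries, 60 members reached 1 TPM in replicate 1 and 51 in replicate 2, against 55.8% and 54.4% of protein-coding genes. Members 2-fold apart numbered 6 at a mean CPM of at least 10, over fewer members, and 14 on TPM + 1. Scaled to spike-ins, all coding genes had a median log2 ratio of 0.33, against -0.01 with TMM, and 23 members were higher in replicate 1 and 3 in replicate 2. Of the 22 members 2-fold apart, none changed direction under the alternatives run, which were 6 for 6 of them and 5 for the 16 under a mean CPM of 10, while 9 of their values fell under 2-fold, 8 of them on TPM + 1.

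The effective number was 8.09 to 8.60 for alpha, 11.3 to 13.4 for beta and 3.84 to 7.89 for gamma in single libraries, and on TPM 3.78 for gamma, with 2.51 in replicate 2. It was 11.4 for gamma without shared transcripts in replicate 1. At 100 reads or more the posterior SD as a fraction of the count was 0.126 for alpha, 0.00257 for beta and 0.0481 for gamma. Depth limits members under 10 reads. No paired analysis was possible because the study has 1 group.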
